A study of Homo sapiens with 24 samples.

Results

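The proteins of the cytosolic ribosome were followed across 8 groups of SAS cells, a human oral squamous carcinoma line. Members were the protein-coding rows of the deposited count table with a gene symbol of the RPL or RPS form, together with RPLP0, RPLP1, RPLP2 and RPSA. Genes of the S6 kinases and genes on chromosome Y were left out. This gave 84 of the 58735 gene rows: 31 proteins of the small subunit, 43 of the large subunit, 3 of the P stalk and 7 paralog forms (RPL3L, RPL7L1, RPL10L, RPL22L1, RPL26L1, RPL39L and RPS27L). Of the 84, 82 passed the filter on low counts. RPL3L was at 0 to 0.557 CPM (counts per 1000000 of the scaled library size) in the 24 libraries, and RPL10L had no count in any of them.

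The ribosome carries out translation. Its small subunit decodes the mRNA, its large subunit joins amino acids, and the P stalk (RPLP0, RPLP1 and RPLP2) draws in the elongation factors. Most mRNAs of ribosomal proteins begin with a C followed by a run of pyrimidines, the terminal oligopyrimidine (TOP) tract, through which mTORC1 and LARP1 control their translation together. That control acts on translation and need not alter the amount of mRNA, which is what was measured here. A few members also act off the ribosome: RPL5, RPL11 and RPL23 bind MDM2, a ubiquitin ligase. Some members have a paralog form with a related protein, such as RPL22L1 for RPL22. In mice, loss of Rpl22 raises Rpl22l1.

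The cells carried NRF2 as E79Q or as wild type (WT). NRF2 is the transcription factor of the antioxidant response, and E79Q lies in the part of the protein that KEAP1 binds. For each genotype there were 3 libraries of cells with radiation (RT, 4 Gy) plus CB-839 (0.1 µM), with radiation alone, with CB-839 alone, and untreated (labelled Control). CB-839 inhibits glutaminase, the enzyme that turns glutamine into glutamate. Cells had CB-839 or vehicle for 24 h before irradiation, and RNA of irradiated cells was collected 24 h later. No such time was recorded here for the unirradiated cells. How the E79Q and WT forms were introduced, and whether each genotype was 1 clone, is not given in the sources used here.

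Total counts ran from 14285084 to 23640197 per library. NQO1, a target of NRF2, was at 557 to 842 CPM in the E79Q libraries and 283 to 414 CPM in the WT libraries, and the allele cannot be read from counts per gene. KRT5, a keratin of squamous cells, was at 662 to 1488 CPM, and all 8 squamous markers tested were lower in untreated E79Q than in untreated WT cells (median -0.82 on the log2 scale), 7 with CB-839, 7 with radiation and 5 with both. Of 8 markers of other cell types, 2 passed the filter on low counts, COL1A1 and VWF, while the leukocyte markers PTPRC and CD3E did not exceed 0.0598 and 0.0529 CPM. COL1A1, a collagen of fibroblasts, was at 7.292, 29.51 and 6.509 CPM in untreated E79Q libraries, against 6.265, 5.73 and 6.638 CPM in untreated WT libraries. COL3A1 was at 3.938 CPM in that second E79Q library and at most 0.138 CPM in the other 23. The part of these markers in the results below was not tested. The labels do not say that the 3 libraries of a group were separate cultures, so the tests measure the spread between these samples, which may be technical. The series text describes the irradiated groups alone, and no source used here says whether the other libraries were prepared alongside, so radiation and a batch of preparation cannot be told apart. A possible difference in time of collection cannot be told apart from radiation either. In 4 libraries the deviations from the group mean rose with GC content across genes (r = 0.166 to 0.479), against -0.38 to 0.093 in the other 20. These 4, taken from an earlier analysis of these data, were library 2 of E79Q cells with radiation plus CB-839, library 1 of WT cells with both, library 1 of untreated E79Q cells, and, from WT cells with CB-839, library 3. Library 1 of E79Q cells with radiation plus CB-839 deviated the other way (r = -0.38) and is not among them. Deviations from the mean of 3 libraries balance out, so the trends of libraries in 1 group are not independent. Counts of members are given with and without these 4 where they differ by over 1.5 times or in direction, and the part of GC content in a result was not tested.

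The annotated transcription starts of members that the results turn on are shown because the TOP tract is the sequence this family is known for. Each line gives 10 bases before and 20 bases from the annotated start, 5′ to 3′ on the coding strand, from RefSeq on GRCh38.p14. Capitals mark a C at the start with its run of at least 4 further pyrimidines.
RPL22L1: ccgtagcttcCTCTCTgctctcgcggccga
RPL22: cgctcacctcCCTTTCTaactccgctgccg
RPL26: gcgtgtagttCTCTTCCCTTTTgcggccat
RPS18: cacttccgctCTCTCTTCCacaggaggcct
RPLP0: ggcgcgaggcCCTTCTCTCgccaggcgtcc
RPS26: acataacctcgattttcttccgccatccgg
RPL3: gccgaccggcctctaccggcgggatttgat
RPL7L1: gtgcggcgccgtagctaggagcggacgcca
The windows lie at chr3:170870176-170870205 (RPL22L1), chr1:6199576-6199605 (RPL22), chr17:8383174-8383203 (RPL26), chr12:120201092-120201121 (RPLP0) and chr22:39319604-39319633 (RPL3) on the minus strand, and at chr6:33272065-33272094 (RPS18), chr12:56041908-56041937 (RPS26) and chr6:42879606-42879635 (RPL7L1) on the plus strand. The motif searched was a C at the annotated start followed by at least 4 bases that are C or T, on the coding strand alone. Of the 84 members, 67 were in the RefSeq table. The motif was found in 46 of 62 canonical members (74.2%) and in 1 of 5 paralog forms, RPL22L1. Of all 27305 genes in that table, 5.14% had it. The windows of RPS26, RPL3 and RPL7L1 do not hold it, which concerns these letters at these annotated starts and no more.

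Per length, and as means over the 24 libraries, the highest levels were those of RPS2, a protein near the mRNA entry of the small subunit, at 1596 CPM per kb of merged exons. RPL8, a protein close to the peptidyl transferase centre, followed with 1186 CPM per kb, RPS12 with 1033 and RPL19 with 768.1. The lowest tested members on that scale were RPL36A with 1.22 CPM per kb, RPS27L with 1.43 and RPS10 with 1.79. The merged exons include rarely used ones. Per kb of the transcript that RefSeq matches, RPS2 (3910 CPM per kb) and RPL8 (2524) were again the highest, and RPS27L (2.03), RPL36A (5.51) and RPS10 (5.91) the lowest. The canonical members RPL36A and RPS10 thus lay near the low paralog form RPS27L on both scales.

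Levels of such members carry a limit of counting. In GENCODE 29, 77 of the 84 members have at least 1 pseudogene, and 15 of the tested members lie over another gene on their strand. Genes of small RNAs, such as small nucleolar RNAs, were left out of that count, so the other 67 may lie over such genes. Those 15 had a median of 246.6 CPM, against 704.8 CPM in the other 67. The read-through genes that overlap RPL36A, RPS10 and RPL17 held at most 1 count per library, and AC135178.2, which overlaps RPL26, had 0 counts in all 24. How reads in a shared exon or a near-identical copy were assigned was not tested, so the level of each such member is uncertain. RPL26, RPS29, RPL36A, RPL22 and RPS15A are among the 15, and their differences between groups carry the same limit.

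All members together held 6.71% ± 0.481 of the counts in E79Q cells with radiation plus CB-839 and 6.41% ± 0.252 in WT cells with both (SD, n = 3 each). The share was 6.135% ± 0.097 in irradiated E79Q cells and 6.47% ± 0.221 in irradiated WT cells. With CB-839 alone it was 6.24% ± 0.263 in E79Q cells and 6.47% ± 0.493 in WT cells, and without treatment 6.53% ± 0.23 in E79Q cells and 6.595% ± 0.097 in WT cells. The group means thus lay within 1 percentage point of each other. Irradiated E79Q libraries (6.076% to 6.247%) lay below those of untreated E79Q cells (6.27% to 6.708%) and of E79Q cells with both agents (6.373% to 7.262%). In all other pairs of groups that differ in genotype, radiation or CB-839 alone, the libraries overlapped. The highest libraries were library 2 of E79Q cells with radiation plus CB-839 at 7.26% and the third of WT cells with CB-839 at 7.001%, both among the 4 named above. In bulk RNA a lower share can come from fewer cells with that RNA, from less of it per cell or from more of other RNA. These cannot be told apart.

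**Figure D1:**
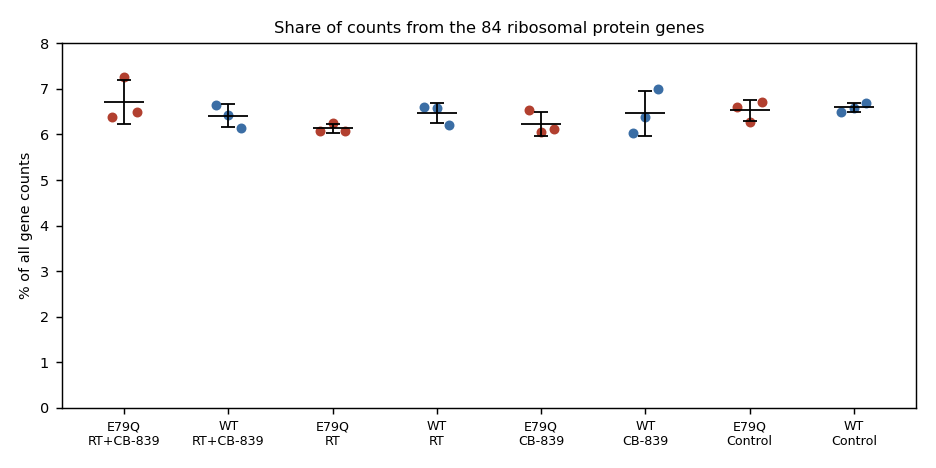
Share of all gene counts held by the members, in percent, in each of the 24 libraries (points), with the group mean and SD as bars (n = 3). The E79Q libraries with radiation plus CB-839 span 6.37% to 7.26%, and the untreated WT libraries lie close to 6.595%.

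The subunits kept their proportion: counts of the large subunit per count of the small subunit ran from 1.33 to 1.42 over the libraries. Of all member counts, the 10 highest members held 33.59%. Across the 8 groups, the range of a member's group means had a median of 0.25 on the log2 scale. It was over 0.5 in 6 members: RPL22L1 (0.83), RPL26 (0.69), RPS29 (0.60), RPS27L (0.54), RPL36A (0.53) and RPS26 (0.51). RPL6, at 0.13, had the smallest range. Most members moved little between groups, and a few had a wider range. Among those few, RPL36A (4.85 CPM on average) and RPS27L (13.09 CPM) had low counts and were called in none of the comparisons below. A range also widens with the spread between libraries.

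Each of 12 simple comparisons set a group against the one that differs from it in genotype, radiation or CB-839. The test was edgeR's quasi-likelihood test over 15956 genes with Benjamini-Hochberg adjustment, and a gene was called at an adjusted p under 0.05. Fold changes are log2 values with standard errors (SE). Shares of all genes are those of this fit. Member counts under other settings, or without some libraries, stand without the share of all genes called there. They show how a count moved and no more. These comparisons share groups, so a group that is high or low enters up to 3 of them. Of the 82 tested members, 53 (64.6%) were called in at least 1 of the 12 and 29 in none. Of all 15956 genes tested, 65.2% were called at least once, so the members' share was at the background. RPL22L1 and RPS26 were called in 6 each, RPL26 and RPL7L1 in 5 each, and RPL10A, RPL3, RPL7A and RPL8 in 4 each, while 12 members were called in both directions. Among members with the TOP letters, 30 of 47 (63.8%) were called at least once, and among those without, 12 of 19 (63.2%).

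**Figure D2:**
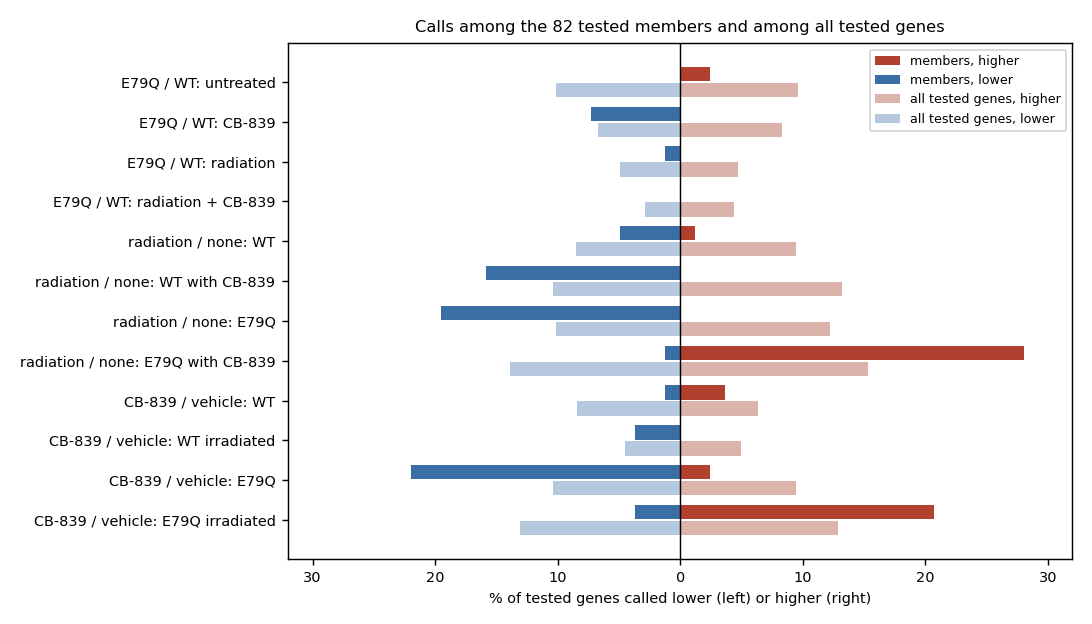
Share of tested genes called lower (left) and higher (right) in each simple comparison, in percent (edgeR, adjusted p under 0.05), with dark bars for the 82 tested members and pale bars for all tested genes. The longest dark bars are the 23 members higher with radiation and the 17 higher with CB-839 that both rest on E79Q cells with radiation plus CB-839, and the 18 lower with CB-839 in unirradiated E79Q cells.

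**Figure D3:**
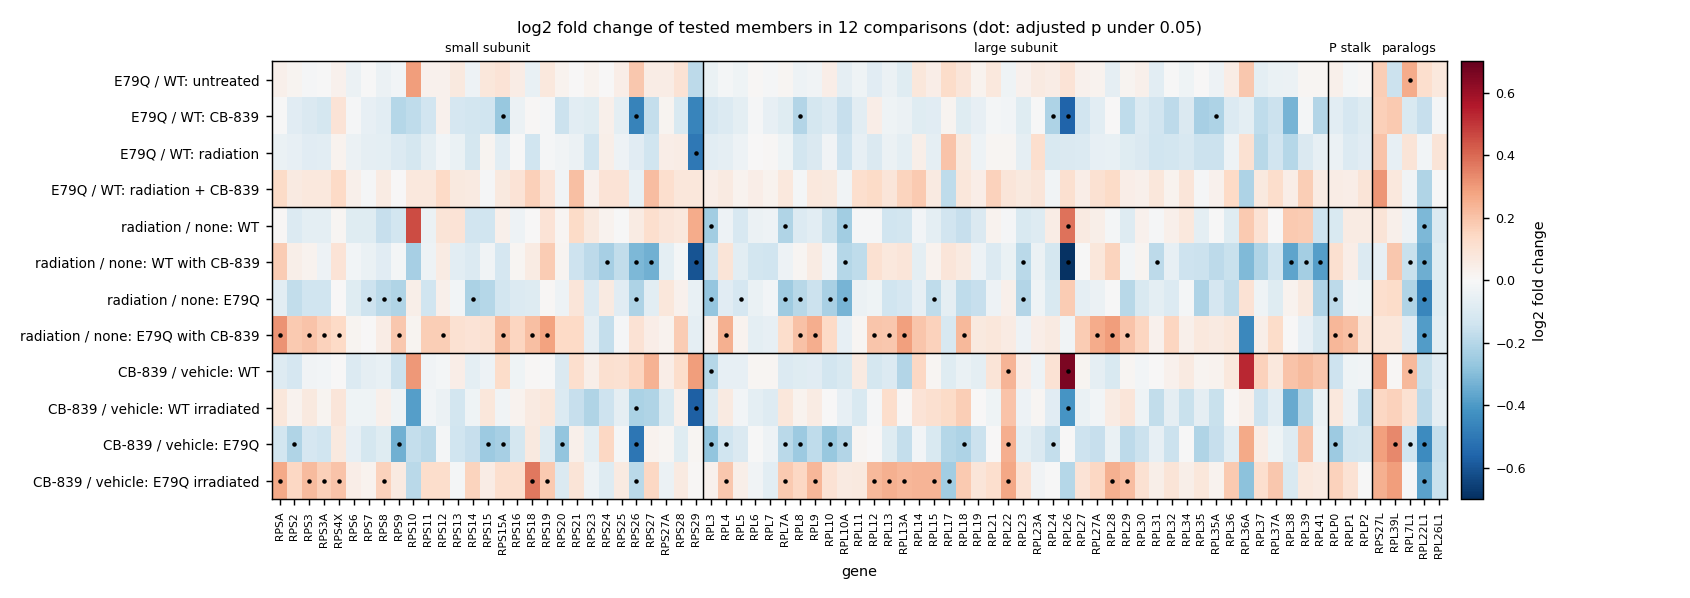
Log2 fold change (colour) of tested members (columns, by class) in each simple comparison (rows), with dots at calls (edgeR, adjusted p under 0.05). RPL22L1 is lower in all 4 radiation rows, RPL22 is called higher in 3 of the 4 CB-839 rows, and the row of radiation in E79Q cells with CB-839 holds more calls of higher than of lower members.

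E79Q was compared with WT under each treatment to see what the NRF2 genotype went with. In untreated cells 2 members were higher in E79Q. One of them, RPL7L1, a paralog form of RPL7 that takes part in building the large subunit, was at 522.8, 514.5 and 512.5 CPM in E79Q libraries, against 435.2, 435.6 and 422.2 CPM in WT libraries. The groups did not overlap, and RPL7L1 rose by 0.26 (SE 0.039, edgeR adjusted p = 1.35e-05). These 2 of 82 members compare with 19.7% of all genes tested, 9.62% higher and 10.1% lower, and both calls held without any 1 library. With no filter on low counts 4 were higher, with trends of GC content and length removed 5, and with these groups alone 4. The median member differed by 0.02, against -0.01 for all genes.

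With CB-839 and no radiation, 6 members were lower in E79Q than in WT: RPL26, RPS26, RPS15A, RPL35A, RPL24 and RPL8. Among all genes 15% were called, 8.3% higher and 6.72% lower. RPS26, a small-subunit protein that touches the mRNA at its exit, was at 181.8, 164.3 and 162.5 CPM in E79Q libraries, against 212.4, 234.2 and 257.0 CPM in WT libraries. It fell by 0.47 (SE 0.07, edgeR adjusted p = 1.57e-05). RPL26, at the polypeptide exit, was at 46.06, 43.87 and 44.15 CPM in E79Q libraries, against 51.51, 70.9 and 75.09 CPM in WT libraries. It fell by 0.56 (SE 0.109, edgeR adjusted p = 0.000499), and its WT libraries spread more widely than its E79Q libraries. RPS15A, of the small subunit, averaged 95.66 ± 4.53 CPM in E79Q and 115.1 ± 10.1 CPM in WT (SD, n = 3 each; -0.27, edgeR adjusted p = 0.00809, and 0.0855 without WT library 3, lost also without E79Q library 2). RPL26 and RPS26 alone kept their calls without any 1 library. The count was 22 without WT library 1, 10 without E79Q library 1, 3 without E79Q library 3, and 2 without WT library 3 or without E79Q library 2. It was 20 with no filter on low counts, 18 with trends of GC content and length removed, and 12 with these groups alone, all lower.

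With radiation alone, RPS29 was the one member called between the genotypes. RPS29, the small zinc-binding protein of the small subunit, was at 199.8, 233.3 and 219.4 CPM in E79Q libraries and 335.1, 313.9 and 271.9 CPM in WT libraries. The groups did not overlap, and RPS29 fell by 0.50 (SE 0.162, edgeR adjusted p = 0.0499). The call was lost without any 1 library but WT library 3, with a largest adjusted p of 0.194 without E79Q library 1, and DESeq2 gave 0.0988. Among all genes 9.64% were called, 4.69% higher and 4.95% lower. The spread was estimated over all 8 groups. In a fit of these 2 groups alone, 2 members were called higher and 27 lower, and without the 4 libraries 1 higher and 13 lower. With no filter, or with the trends removed, 3 were lower.

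With radiation plus CB-839, edgeR called 0 members between E79Q and WT, against 7.26% of all genes (4.4% higher, 2.86% lower). At an unadjusted p under 0.05 there were 11 members, 9 higher and 2 lower, and DESeq2 called 1, lower. The share of all genes at that unadjusted threshold is not given here, so the count is not a result about the members. The median member was 0.07 higher in E79Q, against -0.00297 for all genes, and 68 of the 82 had a positive sign. The members were read in the same libraries, so their signs are not independent. RPL22L1 was at 61.71, 52.61 and 51.77 CPM in E79Q libraries and 66.44, 62.55 and 62.6 CPM in WT libraries, which do not overlap, and differed by -0.21 (edgeR adjusted p = 0.0593). Without E79Q library 2 the count was 2, and it was 1 without E79Q library 1 or WT library 2. With no filter 5 were higher, and with the trends removed 4 were higher and 1 lower.

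The 4 radiation comparisons set irradiated against unirradiated cells of 1 genotype and 1 drug state. RPL22L1 was lower in all 4 comparisons, RPL10A in 3, and RPL23, RPL3, RPL7A, RPL7L1 and RPS26 in 2. In WT cells without CB-839, RPL22L1, RPL3, RPL10A and RPL7A were lower after radiation and RPL26 was higher. These 5 of 82 stand against 17.9% of all genes, 9.41% higher and 8.49% lower. RPL3, a protein of the peptidyl transferase centre, was at 2244, 2231 and 2126 CPM in irradiated libraries and 2544, 2647 and 2631 CPM in untreated libraries. The groups were apart, and RPL3 fell by 0.25 (SE 0.054, edgeR adjusted p = 0.00169). RPL10A, which forms the L1 stalk at the exit site for tRNA, fell to 537.0 ± 11.2 CPM in irradiated cells, against 635.0 ± 21.5 CPM in untreated cells (-0.24, SE 0.062, edgeR adjusted p = 0.0067). RPL26 averaged 54.18 ± 2.84 CPM with radiation and 41.7 ± 6.71 CPM without (0.38, edgeR adjusted p = 0.0152). Without untreated library 2 its adjusted p was 0.133, that of RPL7A was 0.0894, and 3 members were called. RPL26 also lost its call without irradiated library 1, and RPL7A without irradiated library 3. A fit of these groups alone called 6 higher and 19 lower, and without the 4 libraries the count was 3 higher and 16 lower. It was 3 higher and 7 lower with no filter, and 2 higher and 12 lower with the trends removed.

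In WT cells with CB-839, 13 members were lower with radiation, against 23.7% of all genes called, 13.2% higher and 10.4% lower. RPL26 was at 41.28, 42.04 and 38.72 CPM with radiation and 51.51, 70.9 and 75.09 CPM with CB-839 alone, and fell by 0.69 (SE 0.108, edgeR adjusted p = 2.57e-05). RPL41, the shortest protein of the ribosome, averaged 300.9 ± 9.14 CPM with radiation and 392.9 ± 58.2 CPM without (-0.39, edgeR adjusted p = 0.000681). RPS29 averaged 206.5 ± 14.0 CPM with radiation and 313.6 ± 87.9 CPM without, with overlapping libraries (-0.60, edgeR adjusted p = 0.0074, and 0.0824 without library 3 of CB-839 alone). Calls of RPL22L1, RPL26, RPL41, RPL7L1 and RPS26 held without any 1 library. The count was 21 lower without library 1 of CB-839 alone, 7 lower without its library 2, and 3 higher and 5 lower without its library 3. Without library 3 of radiation plus CB-839 it was 2 higher and 6 lower. Without the 4 libraries, 9 were higher and 9 lower, where with them all 13 calls were lower. With no filter 2 were higher and 19 lower, and with the trends removed 2 higher and 22 lower.

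In E79Q cells without CB-839, 16 members were lower with radiation. Among all genes 22.3% were called, 12.2% higher and 10.1% lower, so the members' 19.5% was near the background in number, and all 16 lay on 1 side. RPL22L1 fell to 72.91, 68.46 and 73.71 CPM in irradiated libraries, against 96.91, 96.34 and 101.3 CPM in untreated libraries (-0.45, SE 0.066, edgeR adjusted p = 9.12e-06). RPL10A fell to 485.6 ± 16 CPM, against 608.2 ± 28.1 CPM in untreated cells (-0.33, edgeR adjusted p = 0.000328), and RPL3 fell to 2088 ± 13.6 CPM, against 2522 ± 94.1 CPM (-0.27, edgeR adjusted p = 0.000468). RPL5, which carries 5S rRNA and binds MDM2, fell by 0.12 (SE 0.041, edgeR adjusted p = 0.0382). That call was lost without any 1 library but untreated library 2, with a largest adjusted p of 0.135 without untreated library 3. RPL23 fell by 0.20 here (edgeR adjusted p = 0.0219, and 0.145 without untreated library 3, lost also without irradiated library 1 or 3) and by 0.19 in WT cells with CB-839 (edgeR adjusted p = 0.0304, and 0.209 without library 3 of CB-839 alone, lost also without its library 2 or library 3 of both agents). RPL11, the partner of RPL5, was called in none of the 12 comparisons, and its largest difference was -0.18 in WT cells with CB-839 (edgeR adjusted p = 0.0789).

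Of the 16, RPL10, RPL10A, RPL22L1, RPL3, RPL7A and RPL7L1 kept their calls without any 1 library. The count was 6 without untreated library 3 or irradiated library 1, 7 without irradiated library 3, and 8 without irradiated library 2 or untreated library 1. A fit of the 2 groups alone called 39, leaving out the 4 libraries 32, no filter 27 and the trends removed 25, all of them lower. The share of all genes called under each of these settings is not given here. The median member differed by -0.09, against 0.02 for all genes.

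In E79Q cells with CB-839, 23 members were higher with radiation and RPL22L1 was lower. Among all genes 29.2% were called, 15.3% higher and 13.9% lower, so the members' 29.3% lay at the background in number, and 23 of the 24 were higher. RPSA, also known as a laminin receptor, was at 1767, 2185 and 1835 CPM with radiation and 1648, 1499 and 1499 CPM with CB-839 alone. Library 2 with radiation stood above its group, yet all 3 lay above the libraries without radiation. RPSA rose by 0.32 (SE 0.068, edgeR adjusted p = 0.00104). RPLP0 of the stalk rose by 0.23 (edgeR adjusted p = 0.00804, and 0.0918 without library 2 with radiation).

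The number called moved with single libraries. Without library 2 with radiation plus CB-839 the count was 10 higher and 1 lower, without library 2 of CB-839 alone 11 higher and 1 lower, and without its library 3 it was 13 higher and 1 lower. A fit of the 2 groups alone called 2 higher and 1 lower. The 23 had a median GC content of 50.5%, against 46.9% in the other 59 members, and library 2 was the one whose deviations followed GC content most (r = 0.479 across genes). Members called lower in comparisons without that library also had the higher median. It was 51.35% against 46.9% with CB-839 in unirradiated E79Q cells, and 49.8% against 47.4% with radiation in E79Q cells without CB-839. Both of these comparisons use untreated E79Q cells, whose library 1 is among the 4 named above. The part of GC content was not tested. Without the 4 libraries 17 were higher and 3 lower, and with no filter 36 higher and 1 lower. RPL22L1 fell to 55.36 ± 5.51 CPM with radiation, against 72.54 ± 4.44 CPM with CB-839 alone (-0.39, SE 0.068, edgeR adjusted p = 0.000112).

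The 4 comparisons of CB-839 with vehicle held genotype and radiation fixed. In unirradiated WT cells RPL26, RPL22 and RPL7L1 were higher and RPL3 was lower, 4 of 82 members against 14.8% of all genes (6.35% higher, 8.44% lower). RPL26 was at 51.51, 70.9 and 75.09 CPM with CB-839 and 42.26, 34.72 and 48.11 CPM in untreated libraries (0.66, SE 0.108, edgeR adjusted p = 7.87e-05). The groups did not overlap, though the nearest libraries were close. RPL7L1 averaged 504.5 ± 19.0 CPM with CB-839 and 431.0 ± 7.63 CPM untreated (0.23, edgeR adjusted p = 0.000137). RPL22 averaged 85.26 ± 5.39 CPM with CB-839 and 72.27 ± 4.0 CPM untreated (0.24, SE 0.075, edgeR adjusted p = 0.0298), a call lost without untreated library 1 or 3 or CB-839 library 1 or 2, with a largest adjusted p of 0.126 without untreated library 3. RPL3 fell by 0.20 (edgeR adjusted p = 0.0103, and 0.0801 without CB-839 library 1, lost also without library 2). The count was 9 higher without CB-839 library 1, 2 higher without its library 2, and 3 higher and 5 lower without its library 3. Without the 4 libraries it was 4 higher and 25 lower, with no filter 10 higher and 3 lower, and with the trends removed 6 higher and 5 lower.

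In irradiated WT cells CB-839 went with lower RPS29, RPL26 and RPS26, against 9.53% of all genes called, 4.99% higher and 4.53% lower. RPL26 was at 41.28, 42.04 and 38.72 CPM with CB-839 and 57.28, 53.55 and 51.7 CPM with radiation alone (-0.41, edgeR adjusted p = 0.0156). RPS29 averaged 206.5 ± 14.0 CPM with CB-839 and 307.0 ± 32.2 CPM without (-0.57, edgeR adjusted p = 0.0251). RPS26 averaged 188.6 ± 13 CPM with CB-839 and 219.7 ± 5.32 CPM without (-0.22, edgeR adjusted p = 0.0439). Each call was lost without at least 1 library. RPL26 was lost without library 1 of radiation alone (0.0743) or library 3 of both agents. RPS29 was lost without library 1 (0.103) or 2 of radiation alone or library 1 or 3 of both agents. RPS26 was lost without any library but library 1 of both agents, with a largest adjusted p of 0.177 without library 3 of both. The count was 0 without library 1 of radiation alone or library 3 of both agents, and 1 without library 2 of radiation alone. A fit of the 2 groups alone called 3 higher and 9 lower, and without the 4 libraries the count was 2 higher and 10 lower. It was 2 higher and 6 lower with no filter, and 2 higher and 8 lower with the trends removed.

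In unirradiated E79Q cells 18 members were lower with CB-839 and RPL22 and RPL39L were higher. Among all genes 19.8% were called, 9.44% higher and 10.4% lower, against 24.4% of the members. The median member differed by -0.12, against 0.02 for all genes. RPS26 fell to 181.8, 164.3 and 162.5 CPM with CB-839, against 242.5, 233.4 and 246.9 CPM in untreated libraries (-0.51, SE 0.07, edgeR adjusted p = 5.43e-06). RPL22L1 fell to 77.57, 69.15 and 70.92 CPM with CB-839, against 96.91, 96.34 and 101.3 CPM (-0.44, SE 0.066, edgeR adjusted p = 2.18e-05). For both genes the libraries lay well apart. RPL3 fell by 0.27 (edgeR adjusted p = 0.000515), and RPL10, which joins the large subunit late in its making, also by 0.27 (edgeR adjusted p = 0.00258). RPLP0 averaged 2515 ± 83 CPM with CB-839 and 2996 ± 172 CPM untreated (-0.25, edgeR adjusted p = 0.00621, and 0.0514 without untreated library 1). RPL22 averaged 84.14 ± 4.41 CPM with CB-839 and 70.69 ± 3.6 CPM untreated (0.25, edgeR adjusted p = 0.0175, and 0.0926 without untreated library 3, lost also without CB-839 library 2 or 3). RPL39L, a paralog form best known from the testis, averaged 15.76 ± 1.17 CPM with CB-839 and 12.45 ± 0.569 CPM untreated (0.34, SE 0.118, edgeR adjusted p = 0.0439). That call was lost without any 1 of the 6 libraries, with a largest adjusted p of 0.162.

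Of these 20, 7 kept their calls without any 1 library, among them RPL10, RPL22L1, RPL3, RPS20, RPS26 and RPS9. Without CB-839 library 2 the count was 8 lower, without untreated library 1 it was 1 higher and 8 lower, without untreated library 3 it was 1 higher and 12 lower, and without CB-839 library 3 it was 12 lower. A fit of the 2 groups alone called 3 higher and 36 lower, leaving out the 4 libraries 1 higher and 35 lower, and no filter 1 higher and 34 lower.

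In irradiated E79Q cells, 17 members were higher with CB-839 and 3 were lower, against 26% of all genes, 12.9% higher and 13.1% lower. RPS18, at the head of the small subunit, was at 1423, 1709 and 1450 CPM with CB-839 and 1160, 1226 and 1164 CPM with radiation alone (0.37, SE 0.074, edgeR adjusted p = 0.000583). RPSA was at 1767, 2185 and 1835 CPM with CB-839 and 1614, 1636 and 1570 CPM with radiation alone (0.26, edgeR adjusted p = 0.00542). Again library 2 with both agents was the highest. RPL22 averaged 87.55 ± 8.12 CPM with CB-839 and 72.45 ± 7.57 CPM with radiation alone (0.27, SE 0.074, edgeR adjusted p = 0.00801, and 0.0778 without library 3 of radiation alone). The 3 lower members were RPL22L1 (-0.38, SE 0.067, edgeR adjusted p = 0.000172), RPL17 (-0.24, edgeR adjusted p = 0.0287) and RPS26 (-0.19, edgeR adjusted p = 0.0449). RPL17 had an adjusted p of 0.148 without library 3 of radiation alone and was lost also without library 1 or 3 of both agents. RPS26 had one of 0.204 without library 3 of both agents, was lost without any 1 library but library 2 of both, and had one of 0.0502 with DESeq2.

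Calls of RPL22L1, RPL4, RPS18, RPS4X and RPSA held without any 1 library. Without library 2 of both agents the count was 5 higher and 4 lower, and RPS3, which lines the mRNA entry and rose by 0.22 (edgeR adjusted p = 0.00742), had an adjusted p of 0.0544. It was 30 higher and 1 lower without library 1 of both agents, 10 higher and 2 lower without library 1 of radiation alone, and 11 higher and 1 lower without its library 3. A fit of the 2 groups alone called 2 higher and 1 lower. The 17 had a median GC content of 50%, against 47.9% in the other members. Members called lower with CB-839 in unirradiated E79Q cells also had the higher median. That comparison uses untreated E79Q library 1, which is among the 4 named above. The part of GC content in these calls was not tested.

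Effects were set against each other between genotypes by interaction terms in the same fit. For CB-839 in unirradiated cells 6 members had a lower effect in E79Q than in WT: RPL26, RPS26, RPL7L1, RPS15A, RPL22L1 and RPL24. Among all genes 14.3% were called, 7.46% higher and 6.83% lower. RPS26 fell with CB-839 in E79Q cells (-0.51) and was not called in WT cells (0.15, edgeR adjusted p = 0.165), and the effects differed by -0.66 (SE 0.098, edgeR adjusted p = 3.18e-05). RPL7L1 fell with CB-839 in E79Q cells (-0.14) and rose in WT cells (0.23), a difference of -0.37 (SE 0.055, edgeR adjusted p = 3.4e-05). In RPL26 the difference was -0.66 as well (SE 0.155, edgeR adjusted p = 0.00436), where WT cells rose with CB-839 (0.66) and E79Q cells averaged 44.69 ± 1.19 CPM with CB-839 and 44.6 ± 1.9 CPM untreated. These 3 held without any 1 library. RPS15A (-0.36, edgeR adjusted p = 0.0125) lost its call without WT library 3 with CB-839 (0.0516), RPL24 (-0.27, edgeR adjusted p = 0.0323) had an adjusted p of 0.124 without it, and RPL22L1 (-0.28, edgeR adjusted p = 0.0439) had 0.112 without E79Q library 2 with CB-839. The call of RPL24 was lost in 7 of the 12 runs that left out 1 library and that of RPL22L1 in 10. With no filter, or with the trends removed, 14 members had a lower effect in E79Q.

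**Figure D4:**
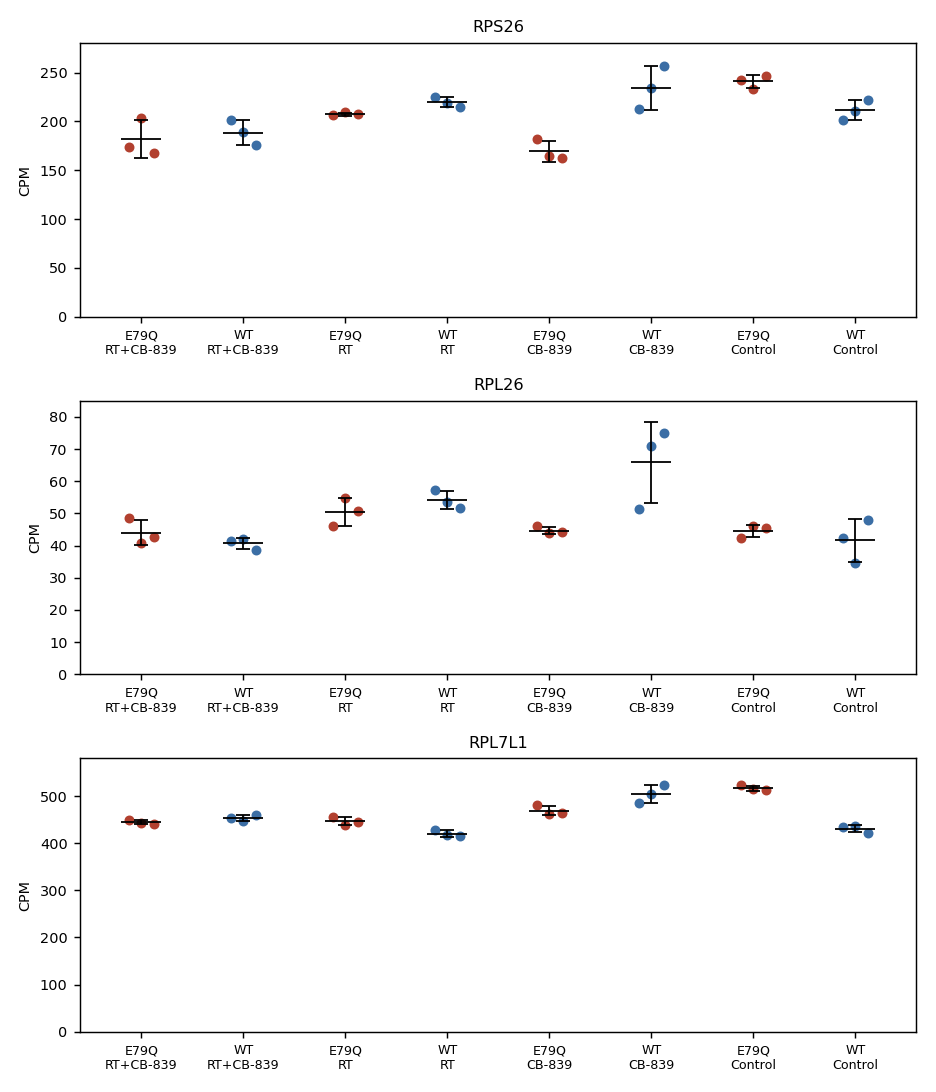
Levels of RPS26, RPL26 and RPL7L1 in CPM in each library (points) by group, with the group mean and SD as bars (n = 3). With CB-839 alone the E79Q libraries of RPS26 lie at 162.5 to 181.8 CPM and the WT libraries at 212.4 to 257.0 CPM, while the untreated E79Q libraries of RPL7L1 lie above the untreated WT ones.

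For radiation in cells with CB-839, RPL26 (0.67, SE 0.154, edgeR adjusted p = 0.024) and RPS26 (0.42, SE 0.099, edgeR adjusted p = 0.0304) had a higher effect in E79Q than in WT. Among all genes 1.08% were called, 0.363% higher and 0.714% lower. Both calls rest on the same CB-839 groups as the differences above and were each lost in 6 of the 12 runs that left out 1 library, with largest adjusted p of 0.103 for RPL26 without WT library 3 with CB-839 and 0.127 for RPS26 without E79Q library 3 with CB-839. A fit of the 4 groups alone called 0, and one with no filter 8 higher. For radiation without CB-839 edgeR called 0 members (3 at an unadjusted p under 0.05, 1 with DESeq2), against 1.26% of all genes, 0.815% higher and 0.445% lower. For CB-839 in irradiated cells edgeR also called 0 (11 at an unadjusted p under 0.05, 0 with DESeq2), against 1.91% of all genes, 1.26% higher and 0.652% lower. These shares of all genes are at an adjusted p under 0.05, and those at the unadjusted threshold are not given here. Other settings called members in both: for radiation without CB-839 1 lower with no filter on low counts or with trends of GC content and length removed, and 3 lower with the 4 groups alone. For CB-839 in irradiated cells they called 4, 2 and 1 higher.

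RPL22L1, the member with the largest range of group means, was set beside RPL22. RPL22L1 lay on chromosome 3 (GRCh38, 170864875 to 170870483, minus strand) and RPL22 on chromosome 1 (6185020 to 6209389, minus strand), and their values cover the whole gene. RPL22L1 averaged 55.36 ± 5.51 CPM in E79Q and 63.86 ± 2.24 CPM in WT cells with radiation plus CB-839, and 98.19 ± 2.72 CPM in E79Q and 90.39 ± 2.27 CPM in WT cells without treatment. RPL22 moved the other way with CB-839: it was called higher in 3 of the 4 CB-839 comparisons, and in irradiated WT cells it differed by 0.20 (edgeR adjusted p = 0.0925). RPL22L1 was called lower with CB-839 in both E79Q comparisons. In WT cells it differed by -0.16 without radiation (edgeR adjusted p = 0.115) and by -0.18 with it (edgeR adjusted p = 0.0807). RPL22 was called in none of the radiation comparisons. Its radiation values ran from -0.049 to 0.055.

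As a ratio of counts, RPL22L1 per RPL22 was 0.633 ± 0.036 in E79Q and 0.775 ± 0.026 in WT cells with radiation plus CB-839. With radiation alone it was 0.999 ± 0.14 in E79Q and 1.01 ± 0.015 in WT cells. With CB-839 alone it was 0.865 ± 0.098 in E79Q and 0.954 ± 0.11 in WT cells, and without treatment 1.39 ± 0.11 in E79Q and 1.25 ± 0.05 in WT cells (SD, n = 3 each). The untreated libraries, at 1.21 to 1.52, all lay above every library with a treatment, whose highest was 1.15. The libraries with both agents, at 0.592 to 0.8, lay lowest and just below those of CB-839 alone, which started at 0.807. The counts were not scaled for gene length (2326 bp for RPL22L1 and 4682 bp for RPL22), so the ratio does not give relative amounts of transcript. RPL22 also carries the limit of counting given above. The ratio was chosen after its members' values were seen, so it is a description.

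**Figure D5:**
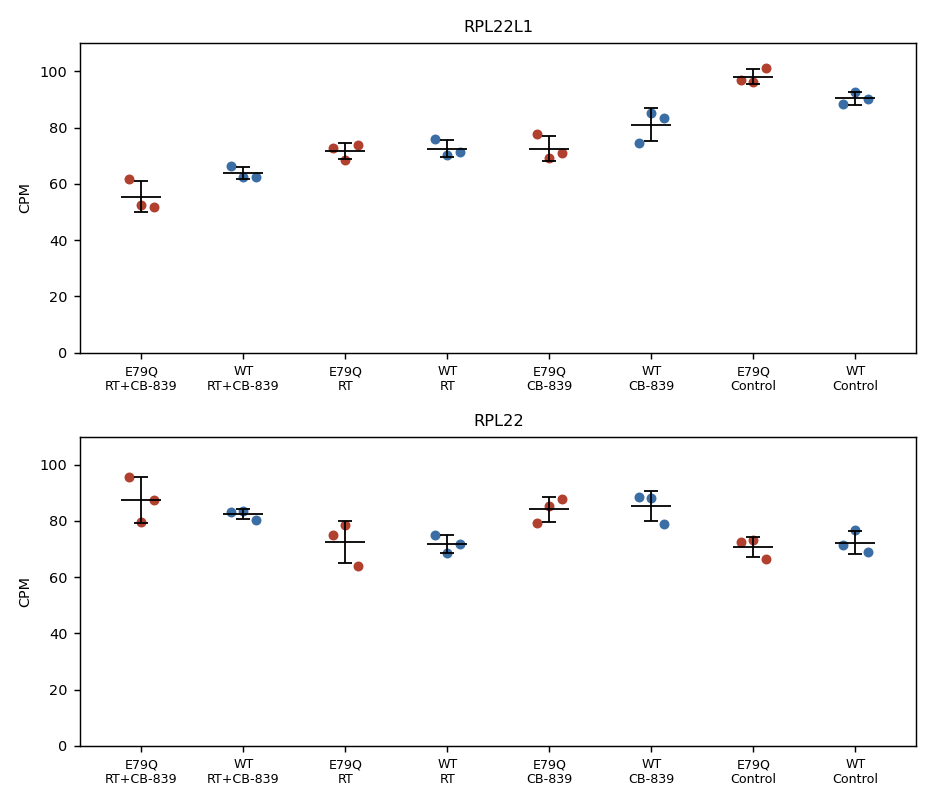
Levels of RPL22L1 (top) and RPL22 (bottom) in CPM in each library (points) by group, with the group mean and SD as bars (n = 3). RPL22L1 is lowest with radiation plus CB-839 (51.77 to 66.44 CPM) and highest untreated (88.32 to 101.3 CPM), while the group means of RPL22 are higher in the 4 groups with CB-839 than in the 4 without.

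The other paralog forms were low, except RPL7L1. RPL26L1 was at 25.14 to 35.97 CPM, RPL39L at 11.71 to 18.31 CPM and RPS27L, a paralog form of RPS27, at 9.63 to 17.62 CPM. RPS27L and RPL26L1 were called in none of the 12 comparisons, and RPS27L values ran from -0.06 to 0.31. RPS6, the substrate of S6 kinase, RPS27A, a ubiquitin fusion, RPLP2 and RPL7 were likewise called in none. The paralog forms, summed and scaled, were 0.0673% ± 0.0006 of counts in untreated E79Q cells and 0.0579% ± 0.0005 in untreated WT cells, where RPL7L1 made up most of the sum.

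Genes around the ribosome were taken from lists drawn up for this family. Of 32 genes of ribosome biogenesis, 21 were higher in E79Q than in WT without treatment, with a median of 0.25, against 9.62% of all genes. Of the 82 members 2 were called there, below that share. NOP16, which acts in the making of the large subunit, rose by 0.45 (edgeR adjusted p = 2.43e-05) and NOP56, a core protein of box C/D particles, by 0.28 (edgeR adjusted p = 2.46e-05). With CB-839, 18 of the 32 were higher in WT cells without radiation (median 0.22), against 6.35% of all genes, and 15 were lower in E79Q cells without radiation (median -0.22), against 10.4%, among them BOP1 (-0.50, edgeR adjusted p = 4.14e-06). The CB-839 effect was lower in E79Q than in WT in 24 of the 32 (median -0.42) and in 6 of the 82 members (median -0.10), where 6.83% of all genes were called lower, so the members lay near the background. UTP4, of the small-subunit processome, had the smallest p among them (-0.61, edgeR adjusted p = 2.68e-07). These comparisons share their control groups, and whether the 2 sets of genes differ was not tested.

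In irradiated E79Q cells CB-839 went with 16 of the 32 biogenesis genes lower, against 13.1% of all genes, among them NPM1 (-0.50) and NCL (-0.41). Of the 82 members, 17 were higher and 3 lower there, against 12.9% and 13.1% of all genes. The number of higher members fell without library 2 of both agents, as given above. Whether the biogenesis genes and the members differ was not tested. Another list held translation factors and other genes named for TOP mRNAs, such as HNRNPA1, NAP1L1 and TPT1. Of its 9 genes in the RefSeq table, 8 had the motif at an annotated start. Of its 13 tested genes, 5 were higher and 3 lower with CB-839 in irradiated E79Q cells, against 12.9% and 13.1% of all genes. EEF2, the elongation factor for translocation, rose by 0.31 with radiation in E79Q cells with CB-839 (edgeR adjusted p = 0.000162), where 6 of the 13 were higher and 1 lower (15.3% and 13.9% of all genes), and fell by 0.28 with CB-839 in unirradiated E79Q cells (edgeR adjusted p = 0.000618), where 5 were lower (10.4% of all genes). FAU, a ribosomal protein made as a fusion and outside the naming rule, was read beside the members and rose by 0.24 with radiation in E79Q cells with CB-839 (edgeR adjusted p = 0.0227). RPL36AL, also outside the rule, fell by 0.35 there (edgeR adjusted p = 0.0147).

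Of 14 genes of RNA polymerase I, which makes the rRNA, 6 were higher with CB-839 in unirradiated WT cells, against 6.35% of all genes. Of 15 tested inputs and translation repressors of mTORC1, 7 were higher and 1 lower with CB-839 in irradiated E79Q cells, against 12.9% and 13.1% of all genes. LARP1, which binds the TOP tract, rose by 0.20 in untreated E79Q against untreated WT cells (edgeR adjusted p = 0.000596) and fell by 0.20 with CB-839 in E79Q cells (edgeR adjusted p = 0.000524). DDIT4, an inhibitor of mTORC1, was at 22.92 ± 0.631 CPM in untreated E79Q and 107.4 ± 3.41 CPM in untreated WT cells, a fall of 2.23 (edgeR adjusted p = 2.28e-16). With CB-839 it was at 21.55 ± 1.25 CPM in WT cells, against 107.4 ± 3.41 CPM in untreated WT cells. Of 11 tested host genes of small nucleolar RNAs, whose own transcripts often carry TOP tracts, 2 were higher with radiation in WT and 2 in E79Q cells without CB-839, GAS5 among them. Those counts were near the 9.41% and 12.2% of all genes called higher, and are not a result about that list.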

How the data were processed

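RNA-seq counts per Ensembl gene in 24 libraries were deposited by the authors as 1 column per library; STAR, HTSeq and GRCh38 are named, with no role, order or version, per the submitters' processing notes. Neither the strand setting nor the annotation release is stated there. The gene length that the authors deposited beside the counts was used for levels per kb. Of the table's columns, 3 carry a shortened name and were mapped through the samples' titles to E79Q cells with radiation plus CB-839.

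Counts were filtered (filterByExpr), scaled (TMM) and fitted as 8 group means over all 24 libraries (16 residual degrees of freedom, common biological variation 7.19%) with edgeR 4.0.16 in R 4.3.3. Log2 values used a prior count of 2, and p-values were adjusted over 15956 genes in each of 16 comparisons, with a threshold of 0.05. With 3 against 3 libraries an exact test of single values cannot go below 0.1. Gene IDs and coordinates matched GENCODE 29 for 58724 of 58735 rows.

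The members, the lists, the 4 libraries left out together and the rules for named genes were chosen with earlier results of these data known. Named were the 3 largest rises and falls among called members per comparison, the 4 highest and lowest levels, the paralog forms with their partners, single members with known further roles, and the 2 smallest p per list and direction. RPL4, RPL7A, RPL8, RPL24 and RPL35A, members named only for keeping their calls, for their number of calls or for their range, and the RPL22L1 to RPL22 ratio, were chosen after their values were seen. Alternatives were DESeq2 1.42.0, its size factors in edgeR, TMM without the members, no filter, trends of length and GC content removed (lowess, span 0.3), the replicate number as a block, the groups compared alone, and leaving out libraries. The scripts were tested on simulated counts. Some items that these rules name are not reported here.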

Additional observations from a re-analysis of the deposited data

Results flagged for a closer look

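In 8 cases the effect of a treatment on a member differed between the genotypes by the interaction term of the fit. The 6 for CB-839 in unirradiated cells, all lower, were 7.3% of tested members. Of all genes 14.3% were called there, 6.83% lower, so the members lay near the background. The 2 for radiation with CB-839, both higher, were 2.4% of tested members, against 1.08% of all genes, 0.363% higher. For CB-839 in unirradiated cells the E79Q minus WT difference was -0.656 for RPS26, -0.656 for RPL26, -0.366 for RPL7L1, -0.361 for RPS15A, -0.28 for RPL22L1 and -0.267 for RPL24 on the log2 scale. RPL7L1 was called in both genotypes and in opposite directions, RPL26 was called in WT cells alone, and RPS26 and RPL22L1 in E79Q cells alone. For radiation in cells with CB-839 the difference was 0.672 for RPL26 and 0.417 for RPS26. The CB-839 groups enter both sets of differences, so the second pair is no separate evidence.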

How the results depend on the processing

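The counts below are members called, of 82 (83 with no filter). The share of all genes called under each setting is not given, so these counts are not set against a background. With no filter on low counts they were, for E79Q against WT, 4 untreated, 20 with CB-839, 3 with radiation and 5 with both. For radiation they were 10 in WT cells, 21 in WT cells with CB-839, 27 in E79Q cells and 37 in E79Q cells with CB-839. For CB-839 they were 13 in unirradiated and 8 in irradiated WT cells and 35 in unirradiated E79Q cells. For the differences between genotypes they were 1 and 8 for radiation without and with CB-839, and 14 and 4 for CB-839 without and with radiation.

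With trends of length and GC content removed they were 5 untreated, 18 with CB-839, 3 with radiation and 5 with both for E79Q against WT. For radiation they were 14 in WT cells, 24 in WT cells with CB-839 and 25 in E79Q cells, for CB-839 11 in unirradiated and 10 in irradiated WT cells, and for the differences 1 for radiation without CB-839, and 14 and 2 for CB-839 without and with radiation.

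With the groups compared alone they were 4 untreated, 12 with CB-839 and 29 with radiation for E79Q against WT. For radiation they were 25 in WT cells, 39 in E79Q cells and 3 in E79Q cells with CB-839, and for CB-839 12 in irradiated WT cells, 39 in unirradiated and 3 in irradiated E79Q cells. For the differences they were 3 and 0 for radiation without and with CB-839 and 1 for CB-839 with radiation.

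Without the 4 libraries they were 14 with radiation and 3 with both for E79Q against WT, 19 in WT and 32 in E79Q cells for radiation, and for CB-839 29 in unirradiated and 12 in irradiated WT cells and 36 in unirradiated E79Q cells. For the differences they were 2 for radiation without CB-839 and 3 for CB-839 with radiation. DESeq2 called 0 with radiation and 1 with both for E79Q against WT, and 1 for the difference in radiation effect without CB-839. Its size factors in edgeR gave 10 with CB-839 and 1 with both for E79Q against WT. TMM without the members moved no count by over 1.5 times.

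Leaving out 1 library at a time gave, for E79Q against WT, 2 to 2 untreated, 2 to 22 with CB-839, 0 to 1 with radiation and 0 to 2 with both. For radiation it gave 3 to 6 in WT cells, 7 to 21 in WT cells with CB-839, 6 to 21 in E79Q cells and 11 to 35 in E79Q cells with CB-839. For CB-839 it gave 2 to 9 in unirradiated and 0 to 2 in irradiated WT cells, and 8 to 25 in unirradiated and 9 to 31 in irradiated E79Q cells. For the differences it gave 0 to 0 and 0 to 2 for radiation without and with CB-839, and 4 to 9 and 0 to 0 for CB-839 without and with radiation.

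Of 122 called values of members, 45 held in every run without 1 library. No named value changed direction under any alternative, and the shares of counts moved by less than their SD. The replicate numbers did not pair the samples: 4 of 24 libraries correlated best with a library of their own number. With the number as a block the difference in radiation effect with CB-839 had 1 member called, and the other counts stayed within 1.5 times. The cause of these shifts was not tested. Depth limits RPL10L and RPL3L, and the counts of RPS10, RPL36A and the low paralog forms.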

Other observations

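Ribosomal protein pseudogenes made up a small part of the RNA. Of 1144 such rows, 511 had any count, and together they held 0.076% to 0.095% of the counts of a library.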
